A study of Canis lupus familiaris with 222 samples.

Results

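This account follows 100 genes whose transcript levels rose and fell with 1 gene, Ensembl identifier ENSCAFG00000023647 (the index gene), across canine mammary tumors (CMTs). The index gene had been picked because it was low in the tumor cluster called NMF3. Every gene with a mean level of at least 1 FPKM in the clustered tumors was ranked by its Pearson correlation with the index gene on the log2(FPKM + 1) scale, and the 100 highest were kept. They were chosen from 13472 genes that met this minimum and from 24580 identifiers measured in all. FPKM counts a gene's sequenced fragments per length of transcript relative to all fragments mapped in that library. The choice left out the index gene itself and 1 further identifier, ENSCAFG00000028626, whose r of 0.658 would not have reached the list. Gene names for these identifiers were not given in the sources used here, so what these genes encode, and whether they mark a cell type, was not analysed. For the same reason no gene or protein sequences are shown.

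RNA of 158 tumors was sequenced, and all but 1 of them were placed in a cluster and used here. The libraries came from spontaneous mammary tumors of female pet dogs treated by surgery and, in 64 of these dogs, from adjacent normal mammary tissue. No treatment or engineered allele separated the groups, and the ages given for 150 dogs ran from 2 to 19 years (median 12). By histology there were 18 simple adenomas, 16 complex adenomas, 10 benign mixed tumors, 59 simple carcinomas, 33 complex carcinomas, 13 carcinomas in benign mixed tumor and 8 tumors of other histology (Other: 3 osteosarcomas, 3 carcinosarcomas, 1 fibrosarcoma and 1 spindle cell carcinoma). There were 44 benign tumors, 62 tumors of grade 1, 23 of grade 2 and 28 of grade 3. The study grouped the tumors by non-negative matrix factorization into NMF1 (92), NMF2 (35), NMF3 (18), NMF4 (7) and NMF5 (5), and called 37 tumors basal and 120 non-basal. Both groupings were made from the expression of these same tumors.

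As background, the mammary gland is built of milk-producing luminal epithelium, an outer layer of contractile myoepithelial cells, and stroma with fat, vessels and immune cells. Simple tumors consist of 1 kind of epithelial cell, complex tumors add proliferating myoepithelium, and mixed tumors add cartilage or bone. Osteosarcoma and fibrosarcoma are tumors of mesenchymal tissue, while carcinosarcoma holds carcinomatous and sarcomatous parts side by side. RNA of a whole tissue piece reflects all of these cells together. In a bulk sample, fewer cells of a type and less RNA per cell cannot be told apart, and this holds for every level given here.

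The correlation that chose the genes is given as a description. It was 0.939 for the gene of rank 1 (ENSCAFG00000007154) and 0.896 for the gene of rank 2 (ENSCAFG00000007307), with a median of 0.745 over the 100 genes. The list ended without a gap: r was 0.6788 for the gene of rank 99, 0.6782 for rank 100 and 0.6771 for the first gene outside. The median r of all 13472 genes was 0.029. Few genes ran opposite to the index gene to the same extent, since only 1 had an r below the negative of the value at rank 100, and the most negative r was -0.694.

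The 100 genes also followed each other. Over their 4950 pairs the correlation in the tumors ranged from 0.328 to 0.930, with a median of 0.692. The first principal component of the standardized values carried 69.2% of their variance and the second 3.83%. These values describe the list, as genes chosen for 1 partner are bound to correlate with each other.

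The genes of the list were mostly well expressed. Their mean level in the tumors ranged from 2.00 to 1727 FPKM, with a median of 16.4 FPKM against 8.66 FPKM for all genes that met the minimum. A mean of at least 100 FPKM was reached by 17 of the 100 genes, compared with 5.07% of all. The index gene itself was abundant, at 1211 ± 736 FPKM (SD over all clustered tumors), and so were the gene of rank 1 at 400.3 ± 234.1 FPKM and the gene of rank 2 at 769 ± 465 FPKM. The spread of the 100 genes between tumors, as the SD of log2(FPKM + 1), had a median of 1.01 against 0.584 for all genes. It exceeded 2 for 2 genes and was below 1 for 46. No gene of the list carried the same values as another identifier, and 18 were listed at 0 in at least 1 tumor.

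To follow the list in a library, its level was taken as the median over the 100 genes of log2(FPKM + 1) minus each gene's mean over the tumors, so that -1 stands for about 1 log2 unit below the average tumor. Most tumors lay close together: 130 had a level between -0.5 and 1. A long lower tail held 17 tumors below -1 and 8 below -2. Of the 17 tumors below -1, 10 belonged to NMF3, 4 to NMF1, 2 to NMF4 and 1 to NMF2, and 13 were classed as basal. By histology 5 were Other, 5 complex carcinomas, 3 simple carcinomas, 3 carcinomas in benign mixed tumor and 1 a benign mixed tumor. No simple or complex adenoma was among them.

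**Figure D1:**
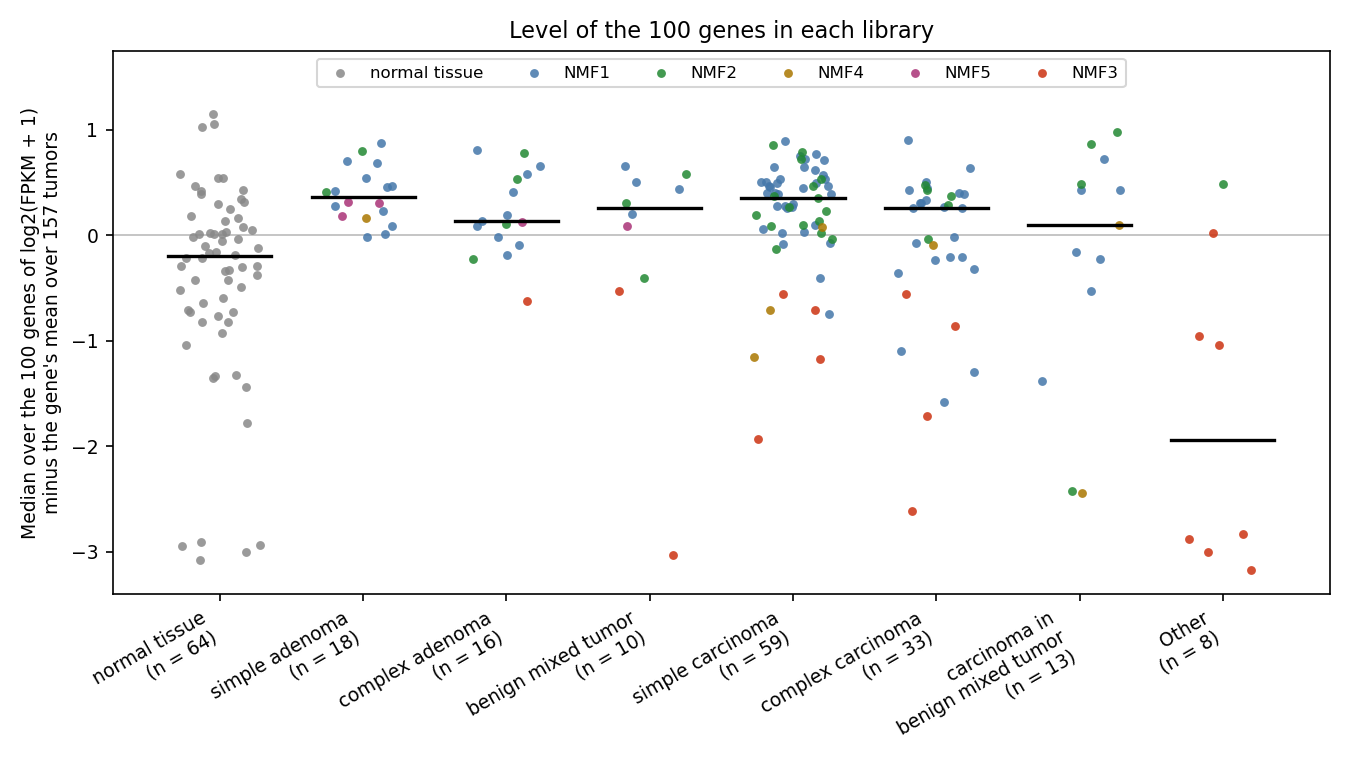
Each point is 1 library, placed by tissue or histology on the x axis, with the level of the 100 genes on the y axis (log2 units relative to the tumor mean). Colors give the cluster and black lines the group medians. The Other histologies have a median of -1.94, the other tumor groups lie between 0.097 and 0.366, and 5 normal tissues sit below -2.

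The correlation rested partly on this tail. Spearman's rho with the index gene, which uses only the order of the tumors, ranged from 0.337 to 0.822 over the 100 genes (median 0.585). Without the 18 NMF3 tumors r ranged from 0.280 to 0.828 (median 0.592), and without the 8 Other tumors from 0.522 to 0.900 (median 0.673). When the 2 tumors farthest from the index gene's median were left out, r ranged from 0.619 to 0.919 (median 0.725). Those tumors had 0.860 and 1.27 FPKM of the index gene. A list chosen without NMF3 would have kept 75 of the 100 genes, and a list chosen by Spearman's rho 62.

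Normal mammary tissue had no part in the choice of genes and gave a second set of libraries in which to look at the same relation. Here too the 100 genes followed the index gene: r over the 64 normal tissues ranged from 0.147 to 0.979 with a median of 0.783, while the median over all genes that met the minimum was 0.071. An r of at least 0.5 was found for 94 of the 100 genes and for 7.71% of all. Of the 100 genes, 50 were also among the 100 highest correlations in normal tissue, ranked over genes with a mean of at least 1 FPKM there, and 88 among the 500 highest. Spearman's rho had a median of 0.723 and a range from 0.066 to 0.939.

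Fitted as a slope with limma, in log2 units of a gene per log2 unit of the index gene, 99 of the 100 genes had a positive slope with an adjusted p below 0.05, beside 21.4% of all 14609 genes tested. None had a negative slope at that threshold, against 15.2% of all. The median slope was 0.38 for the 100 genes and 0.013 for all genes. The gene of rank 1 had a slope of 0.86 (SE 0.025, limma adjusted p = 4.35e-40) and the gene of rank 2 a slope of 0.53 (SE 0.030, limma adjusted p = 4.5e-23). Slopes were steepest for ENSCAFG00000011496 at 0.95 (SE 0.091, limma adjusted p = 2.22e-13) and ENSCAFG00000007199 at 0.92 (SE 0.024, limma adjusted p = 2.95e-42). The exception was the gene of rank 85 (ENSCAFG00000001305), with the lowest slope of 0.04 and an r of 0.147. The 100 genes are not 100 separate observations of this relation, as they were chosen for moving together.

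**Figure D2:**
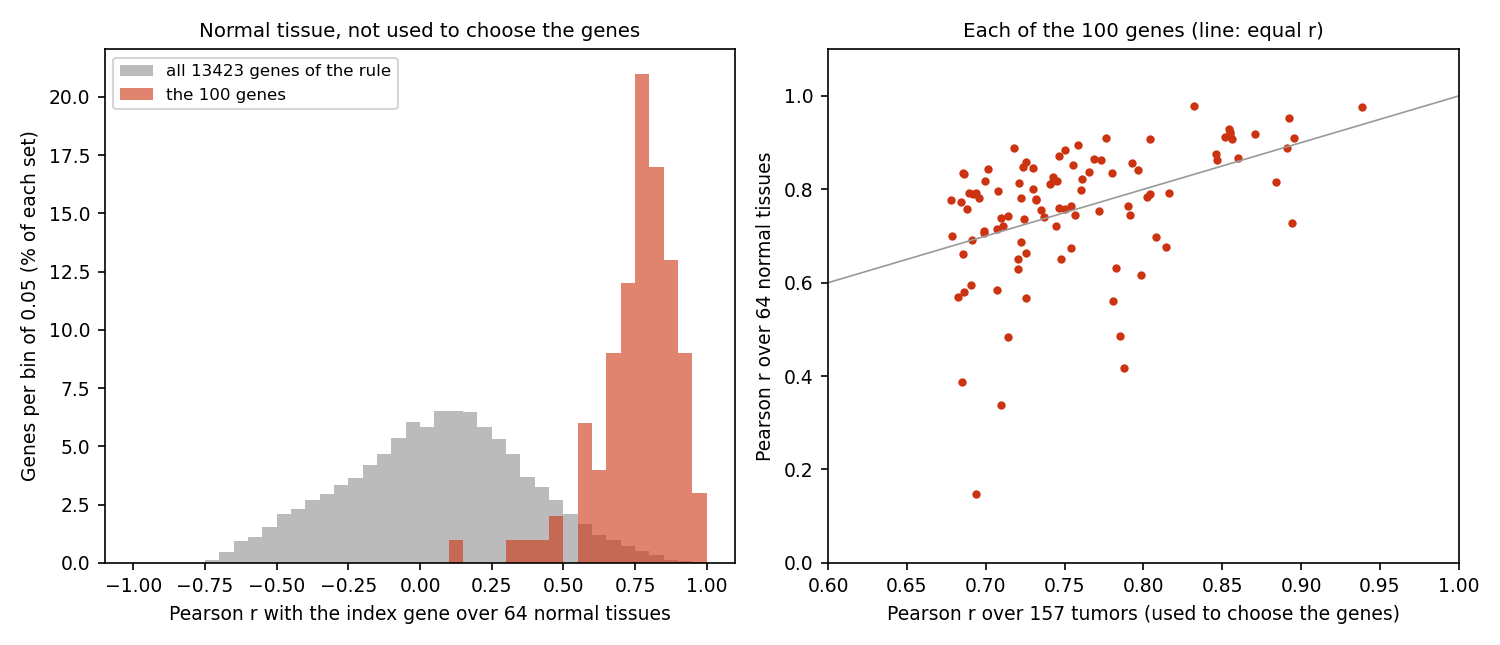
Left, the share of genes per bin of Pearson's r with the index gene over 64 normal tissues, in gray for all 13423 genes with a value and in red for the 100 genes. Right, r in normal tissue against r in the tumors for each of the 100 genes. Of the 100 genes, 94 reached an r of 0.5 in normal tissue.

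As in the tumors, the normal tissues had a lower tail. The index gene ran from 0.784 to 3957 FPKM in normal tissue (median 590.8), the gene of rank 1 from 0.857 to 1339 FPKM (median 228.4) and the gene of rank 2 from 18.2 to 2136 FPKM (median 380.4). The level of the list was below -1 in 11 of 64 normal tissues and below -2 in 5. In those 5 tissues the index gene was at 0.784, 2.44, 4.62, 4.88 and 6.93 FPKM. The tumors of the same dogs had 10.5, 786.5, 1167, 298.3 and 731.5 FPKM in that order, and the tumors of 2 of these dogs had a list level below -1, at -2.88 in an osteosarcoma and -1.10 in a complex carcinoma. Without the 5 normal tissues the median r of the 100 genes was 0.668 and 66 genes had an r of at least 0.5 (6.56% of all genes). The gene of rank 1 then had an r of 0.939 and the gene of rank 2 an r of 0.807. Without the 2 normal tissues farthest from the index gene's median, the median r was 0.748.

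Surgery years gave the same direction. Within the 13 normal tissues of 2016 the median r was 0.865, within the 40 of 2017 it was 0.797 and within the 11 of 2018 it was 0.515. The slope was called positive for 88 genes in 2016, beside 3.01% of all genes, and for 98 in 2017, beside 13.7%. All normal tissues with a list level below -2 came from 2016 and 2017, and no within-year value is given without them. No source used here gives a sequencing batch, and whether the surgery year follows one is not known.

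Tumor was compared with adjacent normal tissue to ask how far the list differs between the growth and the gland around it. The index gene and 13 genes of the list were higher in tumors, by up to 1.78 log2 units. With limma, 13 of the 100 genes were higher in the tumors by at least 1 log2 unit with an adjusted p below 0.05, beside 1.44% of the 14713 genes tested. None was lower, beside 3.9% of all. With no minimum difference, 58 were higher (34.2% of all) and 4 lower (21.6% of all). The log2 difference of the 100 genes ranged from -0.64 to 1.78 with a median of 0.39, and the median of all genes was 0.07.

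The index gene had a median of 1147 FPKM in tumors and 590.8 FPKM in normal tissue, with a log2 difference of 1.23 (SE 0.29, limma adjusted p = 0.000122). Tumors and normal tissues overlapped over nearly their whole range. For the gene of rank 1 the medians were 390.6 and 228.4 FPKM and the log2 difference 0.99 (SE 0.27, limma adjusted p = 0.00084), just short of the minimum of 1. Over the 64 dogs with both tissues and with the dog as a block it was 1.11 (limma adjusted p = 6e-05), and it also passed 1 without NMF3 (1.38), with the mapping rate as a covariate (1.05) and with a pseudocount of 0.1 (1.02). For the gene of rank 2 they were 716.5 and 380.4 FPKM, with a log2 difference of 0.71 (SE 0.23, limma adjusted p = 0.00546). The 2 steepest rises were those of ENSCAFG00000013763, from a median of 266.2 to 1158 FPKM (log2 difference 1.78, SE 0.34, limma adjusted p = 2.05e-06), and of ENSCAFG00000023453, from 7.00 to 27.8 FPKM (log2 difference 1.74, SE 0.25, limma adjusted p = 4.48e-10).

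Within dogs, the level of the list was higher in the tumor in 43 of 64 dogs, and the index gene in 49. The difference between both tissues of 1 dog ran from -2.14 to 2.86 log2 units with a median of 0.30. Single genes of the list were higher in the tumor in 21 to 53 dogs (median 40). Dogs with a complex carcinoma had a median difference of 0.63 (15 of 19 dogs higher in the tumor) and dogs with a simple carcinoma one of 0.40 (14 of 20). The median was 0.15 for simple adenomas (4 of 8), 0.29 for complex adenomas (4 of 5), -0.04 for benign mixed tumors (1 of 3) and 0.27 for carcinomas in benign mixed tumor (3 of 6). The 3 dogs with Other tumors had differences from -0.24 to 0.20. Surgery years were spread unevenly over these histologies, and several of the lowest normal tissues came from dogs with a complex carcinoma. The part of either in these differences was not tested.

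The difference between tumor and normal tissue was not the same in both larger surgery years. Among 42 tumors and 13 normal tissues of 2016, 0 of the 100 genes were called higher by limma and 1 was called lower, near the 0.65% and 1.57% of all genes. The index gene was then lower in tumors by 0.63 log2 units (limma adjusted p = 0.614). Among 98 tumors and 40 normal tissues of 2017, 26 genes were called higher, beside 1.81% of all genes, and the index gene was higher by 1.82 log2 units (limma adjusted p = 1.7e-07). The median of the index gene in tumors was 1038 FPKM in 2016 and 1147 FPKM in 2017, and in normal tissue 1068 and 445.4 FPKM. Beyond an interaction of tissue and year, fitted without the pairing by dog, the part of the surgery year in this comparison was not tested. This interaction was -2.45 log2 units for the index gene (SE 0.68, limma adjusted p = 0.0219). All 100 genes had an interaction below 0, with a median of -1.05, and 20 were called. Over all 14716 genes 0.571% were called below 0, and 267 genes were called in either direction. In the 11 normal tissues of 2018 the median was 426.6 FPKM, and the index gene was higher in the tumor in 10 of these dogs, compared with 31 of 40 in 2017 and 8 of 13 in 2016.

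**Figure D3:**
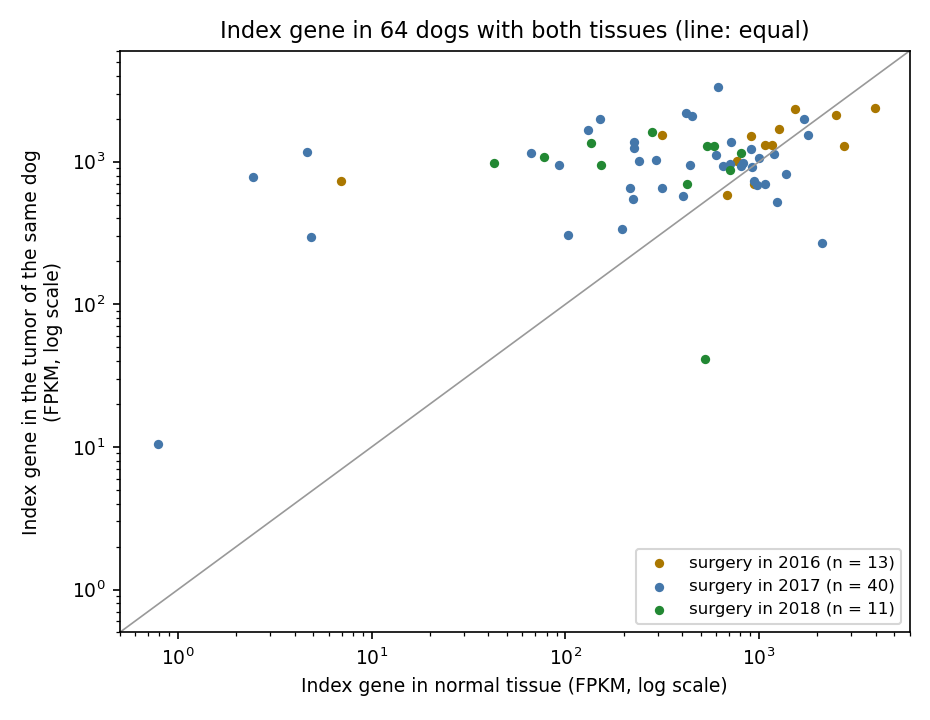
The index gene in normal tissue (x axis, FPKM, log scale) and in the tumor of the same dog (y axis, FPKM, log scale) for 64 dogs, colored by surgery year. Points above the line, 49 of 64, have the higher value in the tumor, and the 5 points farthest left are the normal tissues below 7 FPKM.

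Among tumors, comparisons between groups were made with the genes that the same tumors had served to choose. A difference of the index gene between groups therefore passes to the list by the way it was chosen, and the counts of genes below describe the list and are not independent of each other.

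Among the histologies, the Other tumors had the lowest median list level, though their values ranged widely. Their index gene levels were 4.49, 10.5 and 324.4 FPKM in the osteosarcomas, 6.68 FPKM in the fibrosarcoma, 1.27 FPKM in the spindle cell carcinoma and 337, 659.3 and 1731 FPKM in the carcinosarcomas. The 59 simple carcinomas ran from 60.5 to 4808 FPKM with a median of 1244 FPKM. The highest of the 8 Other tumors was a carcinosarcoma that was also the only Other tumor outside NMF3 (it was in NMF2). The level of the list followed: -3.003, -2.88 and -1.04 in the osteosarcomas, -3.17 in the fibrosarcoma, -2.83 in the spindle cell carcinoma, and -0.95, 0.02 and 0.49 in the carcinosarcomas.

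Against simple carcinomas, 92 of the 100 genes were called lower in the Other tumors, beside 3.19% of 14526 genes tested. All 100 passed with no minimum difference (5.29% of all). The log2 difference ranged from -3.82 to -0.83 with a median of -1.94, and the median of all genes was -0.07. It was -4.36 for the index gene (SE 0.59), -3.79 for the gene of rank 1 (SE 0.56) and -3.18 for the gene of rank 2 (SE 0.53). The 2 lowest genes were ENSCAFG00000017544, with a median of 16.8 FPKM in Other tumors and 185.3 FPKM in simple carcinomas, and ENSCAFG00000002653, with 19.8 and 308.03 FPKM. Since 7 of the 8 Other tumors were in NMF3, the cluster for which the index gene had been picked, no p is given for single genes here. For none of the 100 genes did the groups separate fully, and for 22 the median Other tumor lay below every simple carcinoma. These overlaps were counted for the list only, so no share of all genes stands beside them. Within the tumors of 2016 (3 Other, 11 simple carcinomas) 82 genes were called lower, beside 1.76% of all, and within those of 2017 (5 and 42) 24 were, beside 0.56% of all. The median difference of the list was -1.11 in 2017, compared with -2.95 in 2016. The carcinosarcomas belong to 2017, and their part in this was not tested. Against the 33 complex carcinomas in place of the simple ones, 78 genes were called lower, beside 4.55% of all.

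Complex and simple carcinomas differed far less. The index gene ran from 38 to 2334 FPKM in complex carcinomas (median 929.1) and from 60.5 to 4808 FPKM in simple carcinomas (median 1244). Its log2 difference was -0.69 (SE 0.24, limma adjusted p = 0.0892). The difference was below 0 for 99 of the 100 genes, with a median of -0.35 against 0.08 for all genes. A call was reached by 1 gene, ENSCAFG00000007216, with medians of 12.1 and 21.9 FPKM (log2 difference -1.04, SE 0.24, limma adjusted p = 0.00514), beside 0.0207% of 14516 genes called lower. With no minimum difference 5 genes passed (0.227% of all). The single call was lost without the NMF3 tumors and with the histology of the study's sample table.

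No gene of the list passed the test between benign and malignant tumors. The index gene had a median of 1277 FPKM in 44 benign and 1113 FPKM in 113 malignant tumors, and its log2 difference was -0.38 (SE 0.31, limma adjusted p = 0.605). In limma 0 of the 100 genes were called in either direction, beside 0.13% of 14584 genes called lower and 0.0137% called higher. At an unadjusted p below 0.05 there were 27 genes of the list and 15.4% of all genes. The difference lay below 0 for 97 of the 100 genes, with a median of -0.29 and a range from -0.77 to 0.12. The median of all genes was 0.007, and without the NMF3 tumors the list had a median of -0.17. Benign tumors spanned 0.860 to 2377 FPKM of the index gene, yet the next lowest benign tumor after the 1 at 0.860 FPKM had 435.6 FPKM.

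Between grades 1 gene passed. The median of the index gene was 1162 FPKM in grade 1, 937.5 FPKM in grade 2 and 988.8 FPKM in grade 3, with lowest values of 6.68, 1.27 and 4.49 FPKM and highest values of 4808, 2925 and 3432 FPKM. Neighboring grades overlapped almost entirely. Between grade 3 and grade 1 the log2 difference was -0.35 for the index gene (SE 0.37, limma adjusted p = 0.567). For the list it had a median of -0.23 and a range from -1.36 to 0.57. Without the NMF3 tumors the index gene differed by 0.26 and the gene of rank 2 by 0.11, the list had a median of -0.02, and 1 gene was called higher and 1 lower (1.22% and 1.87% of all). With the NMF3 tumors included, 1 call was made, for ENSCAFG00000000658 (log2 difference -1.36, SE 0.28, limma adjusted p = 0.000154), beside 1.59% of 14492 genes called lower. Its median was 5.10 FPKM in grade 3 and 16.9 FPKM in grade 1. With no minimum difference, 12 genes of the list were lower, near the 11.2% of all genes. Within simple carcinomas the index gene had a median of 1241 FPKM in 26 tumors of grade 1 and 1382 FPKM in 20 of grade 3.

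NMF3 is described without tests, as the index gene was picked for its level in this cluster. In NMF3 the index gene ran from 0.860 to 927 FPKM with a median of 297.7 FPKM, in NMF1 from 190.7 to 3432 FPKM (median 1223) and in NMF2 from 31.3 to 4808 FPKM (median 1536). The list level had a median of -1.11 in NMF3, 0.39 in NMF1 and 0.37 in NMF2, and was below 0 in 17 of 18 NMF3 tumors. The gene of rank 1 had medians of 70.7, 411.5 and 562.1 FPKM in NMF3, NMF1 and NMF2, and the gene of rank 2 medians of 107.9, 805.7 and 945.6 FPKM. Between NMF3 and the 127 tumors of NMF1 and NMF2, the log2 differences of the 100 genes had a median of -1.87.

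NMF3 itself was not uniform. Its 7 Other tumors had a median list level of -2.83 and its 11 remaining tumors one of -0.86. Those 11 ran from -3.02 to -0.53, so every one of them lay below the median of every tumor histology except Other. The 4 complex carcinomas of NMF3 had 38, 270.9, 550.1 and 715 FPKM of the index gene, and the 4 simple carcinomas had 60.5, 74, 845.1 and 927 FPKM. The lowest value of all tumors, 0.860 FPKM, came from a benign mixed tumor of this cluster.

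**Figure D4:**
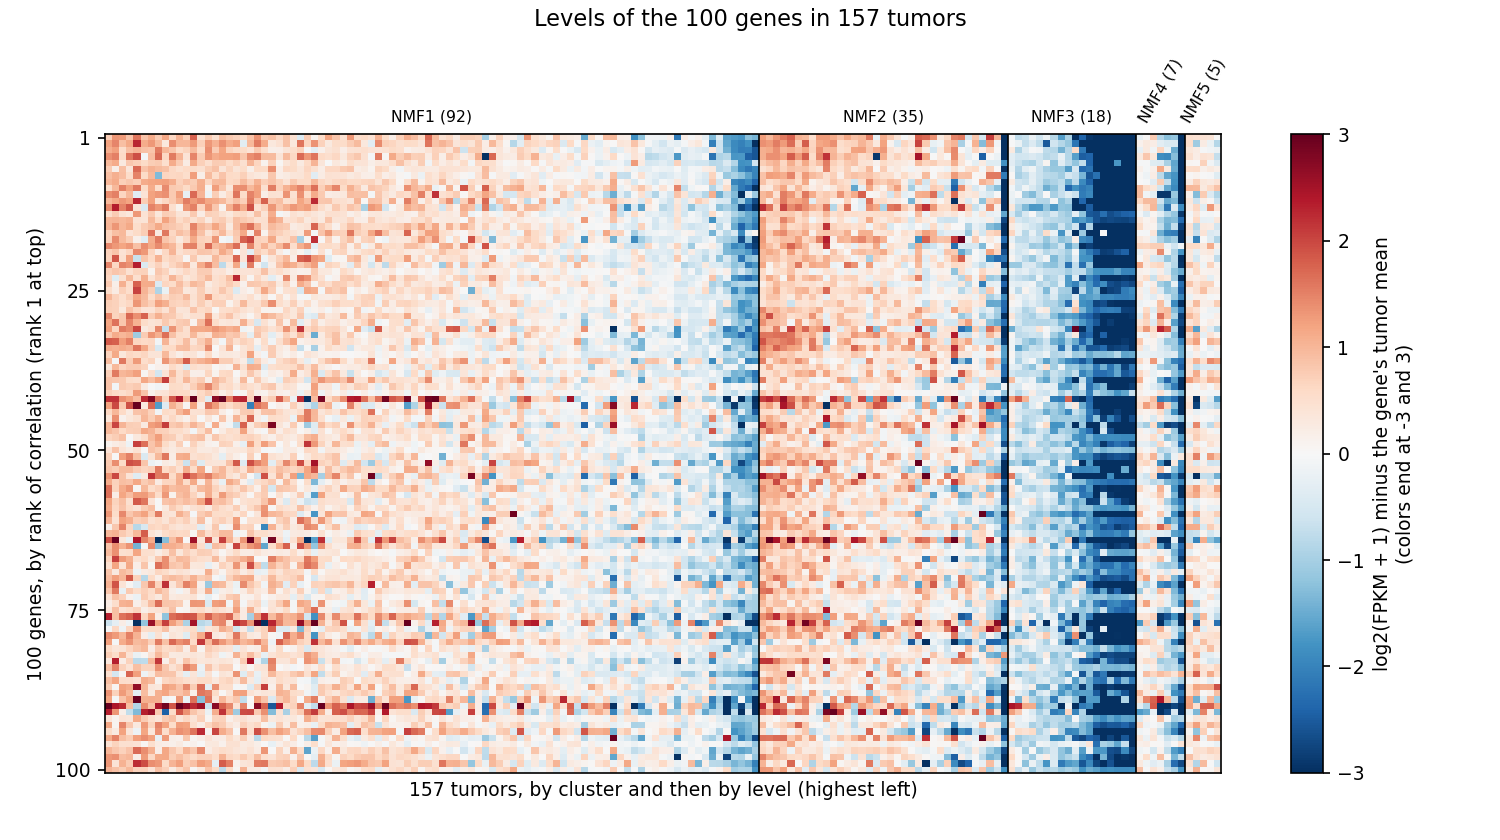
Each row is 1 of the 100 genes, ordered by rank, and each column 1 tumor, ordered by cluster and then by list level. Color shows log2(FPKM + 1) minus the gene's tumor mean. Low tumors are low across almost all rows, and they sit in NMF3 and at the right end of NMF1, NMF2 and NMF4.

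NMF1 and NMF2 had nearly the same level of the list. The median log2 difference of NMF2 from NMF1 was 0.04 for the 100 genes, whereas the median of all genes was -0.23. Called lower in NMF2 were 2 genes, ENSCAFG00000020305 (medians 76.5 and 174.3 FPKM) and ENSCAFG00000008291 (27.6 and 56.8 FPKM), beside 5.66% of all genes. None was called higher, beside 0.263% of all. With no minimum difference, 24 were higher (13.7% of all) and 12 lower (49.7% of all). In NMF4 the index gene ran from 41.6 to 1187 FPKM (median 573.5). In NMF5 it was 827.1, 828.2, 975.7, 1062 and 1193 FPKM.

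Basal tumors held the lowest values of the index gene. Their levels ran from 0.860 to 3432 FPKM with a median of 830.5 FPKM, and those of non-basal tumors from 41.6 to 4808 FPKM with a median of 1213 FPKM. In the fit, 48 genes were called lower in basal tumors, beside 2.96% of 14584 genes, and 96 passed with no minimum difference (23.7% of all). The median log2 difference was -0.97 for the list and -0.04 for all genes. It was -1.76 for the index gene (SE 0.30), -2.14 for the gene of rank 1 (SE 0.27) and -1.80 for the gene of rank 2 (SE 0.27). The largest falls were those of ENSCAFG00000013763, with medians of 340.9 and 1447 FPKM, and ENSCAFG00000011496, with 59.7 and 348.3 FPKM. Without the NMF3 tumors 6 genes were called, beside 2.5% of all, and the log2 difference of the index gene was -0.29. Within 2016 the count was 84 (13 basal and 29 non-basal tumors), beside 4.14% of all genes. Within 2017 it was 11 (22 and 76 tumors), beside 2.51%. Because the class was assigned from the expression of the same tumors, these values describe the classes.

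**Figure D5:**
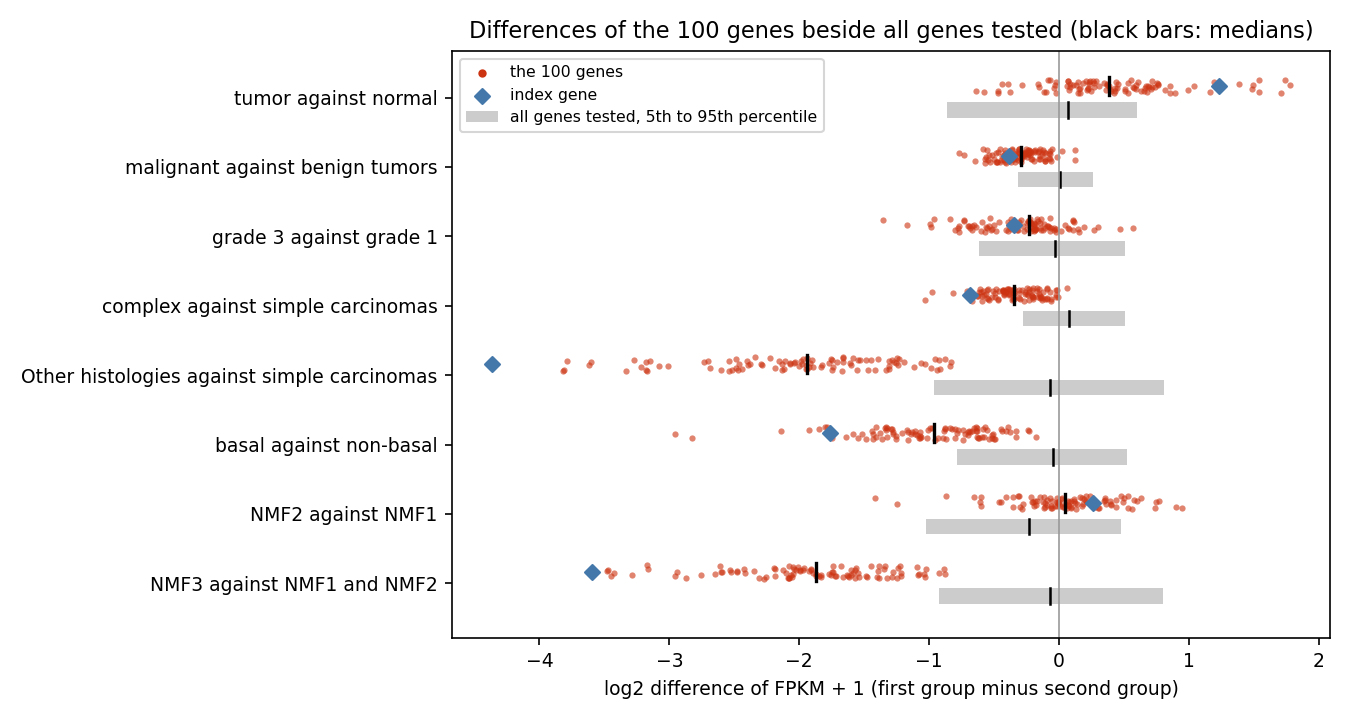
Log2 differences (x axis, first group minus second group) for 8 comparisons. Red points are the 100 genes, blue diamonds the index gene, gray bars the 5th to 95th percentile of all genes tested and black lines medians. The list lies far to the left in the Other histologies and NMF3 (medians -1.94 and -1.87), less so in basal tumors (-0.97), and its medians run from -0.35 to 0.39 in the remaining comparisons.

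Survival after surgery was known for 141 dogs, of which 39 died. Follow-up had a median of 202 days and reached 996 days. In Cox models fitted gene by gene, 0 of the 100 genes were associated with survival at an adjusted p below 0.05, and so were 0% of all 14588 genes. At an unadjusted p below 0.05 there was 1 gene of the list, beside 11.2% of all genes. The hazard ratio per log2 unit was 0.952 for the index gene (95% confidence interval 0.79 to 1.15, Cox adjusted p = 0.876), 0.941 for the gene of rank 1 (0.778 to 1.14) and 0.936 for the gene of rank 2 (0.75 to 1.17). Without the NMF3 tumors the direction turned, with log hazards per log2 unit of 0.33, 0.39 and 0.47 in the same order, and none of these was called (Cox adjusted p = 0.818, 0.768 and 0.638). With the NMF3 tumors included, the hazard ratios of the 100 genes ranged from 0.525 to 1.19 with a median of 0.907. The index gene had a median of 1118 FPKM in the tumors of dogs that died (4.49 to 3011 FPKM) and 1173 FPKM in those of the other dogs (0.860 to 4808 FPKM).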

How the data were processed

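RNA-seq libraries of 158 CMTs and 64 adjacent normal tissues were used. According to the study's methods and processing notes, reads were checked with FastQC 0.10.1, mapped to CanFam3.1 with TopHat2 2.0.9 and Bowtie2, and quantified with Cufflinks 2.1.1. The authors deposited FPKM values, 1 per Ensembl gene and library. Mapped reads per library ran from 52007828 to 147634076, and reads per gene are unknown. No scaling between libraries was added here.

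Tissue, histology and grade came from the sample labels. Clusters, classes and survival came from the study's sample table, which lacks 1 tumor (not in the fits) and differs from the labels in malignancy for 9 tumors. Each tumor is 1 dog. In 64 dogs tumor and normal tissue are paired by animal, and deviations within dogs correlated with a mean of 0.200 (-0.003 between unrelated dogs).

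Differences and slopes were fitted with limma 3.58.1 (R 4.3.3, intensity trend) on log2(FPKM + 1), leaving out genes whose mean FPKM was under 0.5. Log2 differences therefore understate the change of low genes. P-values were adjusted over all genes tested (Benjamini-Hochberg). Calls needed an adjusted p below 0.05 and, for differences, at least 1 log2 unit. Survival was fitted with Cox models (survival 3.8.3). The fits were tested on simulated data. The genes and lists were chosen with earlier results of these data known. Named were the index gene, the genes of rank 1 and 2, those at the edge of the list, and up to 2 called rises and falls per comparison, and the gene of lowest slope was added after its value was seen. Planned lists of cell type markers could not be used, since the identifiers carry no names.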

Additional observations from a re-analysis of the deposited data

Results flagged for a closer look

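In 9 instances a value stood out by a fixed criterion. In 8 of them a single library lay far below the others of its group of 4 to 10 samples, out of 16 combinations of group and measure checked. By chance about 1 in 20 would, and the measures of 1 library are not independent.

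Among the 10 benign mixed tumors, 1 tumor (NMF3, basal) was lowest by a wide gap in all 4 measures. Its log2(FPKM + 1) was 0.895 for the index gene, 0.627 for the gene of rank 1 and 1.2 for the gene of rank 2, and its list level was -3.02. The next lowest benign mixed tumor had a list level of -0.53. Among the 7 NMF4 tumors, a carcinoma in benign mixed tumor was lowest, at 5.41 for the index gene, 3.51 for the gene of rank 1 and 6.07 for the gene of rank 2, with a list level of -2.44. Among the 5 NMF5 tumors a benign mixed tumor had the lowest value of the gene of rank 1, at 8.13, or 279.8 FPKM against 368.8 to 390.4 FPKM in the others.

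The ninth was the difference of the index gene between tumor and normal tissue, which was lower in 2016 than in 2017 by 2.45 log2 units, an interaction of -2.45 (SE 0.68, limma adjusted p = 0.0219). The cause was not tested.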

How the results depend on the processing

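Of the 100 genes, 62 would be kept with Spearman correlation and 50 with the 64 normal tissues in place of the tumors, and 75 to 100 under the other 8 settings (pseudocount 0.1, other minimum levels, tumors left out or added, year and mapping rate removed).

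For tumor against normal, 58 genes in place of 13 were higher with no minimum difference, 26 within 2017 and 0 within 2016, where the log2 differences of the index gene and the genes of rank 1 and 2 turned to -0.63, -0.37 and -0.17. With the dog as a replicate block over 64 pairs, 14 genes were called higher, beside 1.58% of all genes. The index gene then differed by 1.34 log2 units. Without the block these pairs also gave 14, again beside 1.58% of all genes. The gene of rank 1 passed the minimum in both pair fits (1.11 log2 units), so that the block itself changed no call of a named gene.

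Other against simple carcinomas gave 24 genes within 2017 in place of 92. Basal against non-basal gave 96 with no minimum difference, 6 without NMF3, 84 within 2016 and 11 within 2017, in place of 48. Complex against simple carcinomas gave 5 with no minimum difference and 2 with surgery year as a covariate, beside 0.227% and 0.0413% of all genes. It gave 0 with the histology of the sample table (0.0138% of all) or without NMF3 (0.00692% of all), in place of 1. Grade 3 against grade 1 gave 12 with no minimum difference and 3 with a pseudocount of 0.1, beside 11.2% and 3.77% of all genes. It gave 2 each with surgery year as a covariate, within simple carcinomas and with the grade of the sample table, in place of 1. Of all genes 1.55%, 1.65% and 1.56% were called lower in the same order, so these counts were near the share of all. Without NMF3 the grade difference of the index gene turned to 0.26 and that of the gene of rank 2 to 0.11. NMF2 against NMF1 gave 12 lower with no minimum difference, in place of 2.

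No gene of the list was associated with survival under any setting run (8 besides the one reported). With the follow-up of the labels, 0.624% of all genes were called with a lower hazard at a higher level and 0.178% with a higher hazard. Under each other setting at most 0.0206% of all genes were called in either direction. The log hazard of the index gene turned to 0.33 without NMF3 and 0.0086 without the Other tumors. The genes of rank 1 and 2 turned to 0.39 and 0.47 without NMF3, and the gene of rank 2 to 0.022 with the follow-up of the labels. The causes were not tested. The within-year fits, the pairs without the block, the normal tissues as the base of the list and the counts with no minimum difference were chosen after the data had been seen.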

Other observations

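All 5 normal tissues with a list level below -2 came from dogs whose tumor was of grade 2, a grade shared by 13 of the 64 dogs with normal tissue, and 3 of the 5 dogs had a complex carcinoma. This was noticed after the values had been seen and was not tested. In 4 of the 5 dogs the tumor had at least 298.3 FPKM of the index gene.

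The 1 tumor without a cluster, a complex adenoma, had 2283 FPKM of the index gene, 387.6 FPKM of the gene of rank 1, 875.2 FPKM of the gene of rank 2 and a list level of 0.67.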
